A study of Homo sapiens with 16 samples.

Results

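The genes described here are 9 human neural transcription factor genes of the basic helix-loop-helix (bHLH) family: the neurogenins NEUROG1, NEUROG2 and NEUROG3, NEUROD1 and NEUROD2, the oligodendrocyte genes OLIG1, OLIG2 and OLIG3, and ATOH1. They were chosen by name, as 9 of the 19970 protein-coding genes that RefSeq places on chromosomes 1 to 22 and X of GRCh38. A gene was counted as marked in a library when a deposited peak lay within 2 kb of either of its annotated ends.

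The peaks come from chromatin immunoprecipitation with sequencing (ChIP-seq), which finds the DNA that a protein or histone mark sits on, in 2 liver cell lines. HepG2 is a line of liver cancer cells. THLE-2 is a line of liver epithelial cells from non-tumour tissue, immortalised in culture and called normal by the labels. HepG2 was profiled for JARID2, and THLE-2 for JARID2, EZH2 and trimethylated lysine 27 of histone H3 (H3K27me3), each in 2 replicates that the series calls biological, with a separate input library of sonicated chromatin for every immunoprecipitated (IP) library. No treatment or genetic change is given for either line, each condition stands on 1 cell line, and the only target shared by both lines is JARID2. The protocol of HepG2 JARID2 replicate 1 names a JARID2 antibody, while the other 15 samples carry a common sentence on a target antibody, so targets follow the titles and the antibody labels.

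The bHLH factors bind DNA as dimers with an E protein at short motifs called E-boxes, and the neural members push progenitor cells towards neurons, oligodendrocytes or related sensory and endocrine cells. EZH2 is the methyltransferase of Polycomb repressive complex 2 (PRC2), H3K27me3 is the mark it writes, and JARID2 is an accessory subunit that helps bring the complex to DNA. PRC2 is known for keeping developmental regulators of other lineages silent, and the neural bHLH genes are not part of the usual gene programme of liver cells.

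The IP libraries held 7.95 to 39.0 M filtered tags and their inputs 13.4 to 31.1 M, and the authors called 2112 to 90524 peaks per library. Libraries of a pair differed in places. HepG2 JARID2 replicate 1 had 15738 peaks from the smallest library (7.95 M tags) and replicate 2 had 4090. H3K27me3 had 46198 peaks in replicate 1 and 90524 in replicate 2 at similar depth (39.0 and 38.1 M tags). Gene-end peaks were found at 22.5% of protein-coding genes in HepG2 JARID2 replicate 1 but at 0.716% in replicate 2, and at 7.7% and 19.1% in the H3K27me3 libraries. Each result below is therefore given per library. Cell identity could not be checked by expression, since none was measured. Of 11 hepatocyte marker genes, none had an EZH2 or JARID2 peak in any library, while 2 had an H3K27me3 peak in both THLE-2 replicates: TTR and HNF4A. ALB and APOB had one in replicate 2 alone, which makes 4 of 11 there. These 4 genes are named after their values were seen. Over all protein-coding genes the shares were 4.88% for EZH2 and 6.75% for H3K27me3 in both replicates, so counts this small out of 11 are no check of identity.

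The neural bHLH genes are short, which matters for how a peak maps onto them. NEUROG1 (gene ID 4762) lies at chromosome 5, 135534282 to 135535964, NEUROG2 (63973) at chromosome 4, 112513516 to 112516180, and NEUROG3 (50674) at chromosome 10, 69571485 to 69573422. NEUROD1 (4760) lies at chromosome 2, 181668295 to 181680517, and NEUROD2 (4761) at chromosome 17, 39603768 to 39607920. OLIG2 (10215) lies at chromosome 21, 33025935 to 33029185, and its neighbour OLIG1 (116448) at 33070141 to 33072413, 41.0 kb away. OLIG3 (167826) lies at chromosome 6, 137492199 to 137494394, and ATOH1 (474) at chromosome 4, 93828753 to 93830964. NEUROD1 spans 12.2 kb and the other 8 genes span 1.68 to 4.15 kb, against a median of 24.2 kb over all protein-coding genes, so the gene-end windows cover each of those 8 short genes nearly or fully.

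The promoters differ in CG content, a sequence feature tied to Polycomb recruitment in mammals. RefSeq promoters of GRCh38.p14, running from 250 bases before to 50 bases after the start of transcription, were matched for 7 of the 9 genes: NEUROG1, NEUROG2, NEUROG3, NEUROD1, NEUROD2, OLIG3 and ATOH1. Of these, 4 are printed 5′ to 3′ on the strand of the gene, with each CG dinucleotide in capitals, because they span the range of CG content among genes that had EZH2 peaks. They are NEUROG1 (chr5:135535915-135536214, minus strand), NEUROG2 (chr4:112516131-112516430, minus strand), NEUROD2 (chr17:39607871-39608170, minus strand) and ATOH1 (chr4:93828503-93828802, plus strand).
NEUROG1: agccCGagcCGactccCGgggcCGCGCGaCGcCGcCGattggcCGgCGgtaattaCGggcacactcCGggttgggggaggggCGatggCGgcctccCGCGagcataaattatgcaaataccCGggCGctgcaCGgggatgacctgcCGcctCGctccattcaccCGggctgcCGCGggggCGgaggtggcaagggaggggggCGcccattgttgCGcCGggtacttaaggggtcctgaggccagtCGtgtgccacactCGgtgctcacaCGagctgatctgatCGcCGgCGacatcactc
NEUROG2: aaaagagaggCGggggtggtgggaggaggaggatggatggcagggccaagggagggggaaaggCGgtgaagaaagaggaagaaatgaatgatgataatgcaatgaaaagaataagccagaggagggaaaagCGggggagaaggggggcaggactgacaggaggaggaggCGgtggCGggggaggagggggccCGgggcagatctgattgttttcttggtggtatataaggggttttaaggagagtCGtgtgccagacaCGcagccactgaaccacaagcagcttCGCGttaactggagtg
NEUROD2: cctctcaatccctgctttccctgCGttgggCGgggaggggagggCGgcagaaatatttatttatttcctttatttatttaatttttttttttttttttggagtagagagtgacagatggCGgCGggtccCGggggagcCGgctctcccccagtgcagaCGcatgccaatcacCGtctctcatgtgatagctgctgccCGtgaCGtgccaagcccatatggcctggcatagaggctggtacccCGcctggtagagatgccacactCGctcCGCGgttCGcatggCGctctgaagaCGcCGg
ATOH1: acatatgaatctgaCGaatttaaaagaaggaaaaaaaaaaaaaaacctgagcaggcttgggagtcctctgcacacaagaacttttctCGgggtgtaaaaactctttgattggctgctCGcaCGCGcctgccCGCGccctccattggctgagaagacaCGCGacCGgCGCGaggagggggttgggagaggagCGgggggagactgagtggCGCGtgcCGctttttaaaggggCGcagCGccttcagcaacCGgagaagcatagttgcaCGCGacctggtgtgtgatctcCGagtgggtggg

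The NEUROG1 promoter has 35 CG dinucleotides in its 300 bases, at least as many as 83.0% of 15812 protein-coding promoters. The NEUROG3 and NEUROD1 promoters have 31 each, ATOH1 has 22, NEUROD2 has 19, and NEUROG2 and OLIG3 have 10 each, at least as many as 28.6% of promoters. The median was 22 over all promoters and 27 over the 694 promoters of genes with an EZH2 peak in both THLE-2 replicates (quartiles 17 and 36). NEUROG2 and OLIG3 lie below the lower of these quartiles, and the other 5 promoters lie between them. E-boxes, spelled CANNTG and read on both strands at once because the motif is its own reverse complement, were found in the NEUROD2 (3 matches), NEUROG3 (1) and ATOH1 (1) promoters. That is 3 of 7 promoters (42.9%), against 64.5% of all promoters. The letters TATAAA, searched on both strands, were found at OLIG3 and at 9.64% of all promoters.

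**Figure D1:**
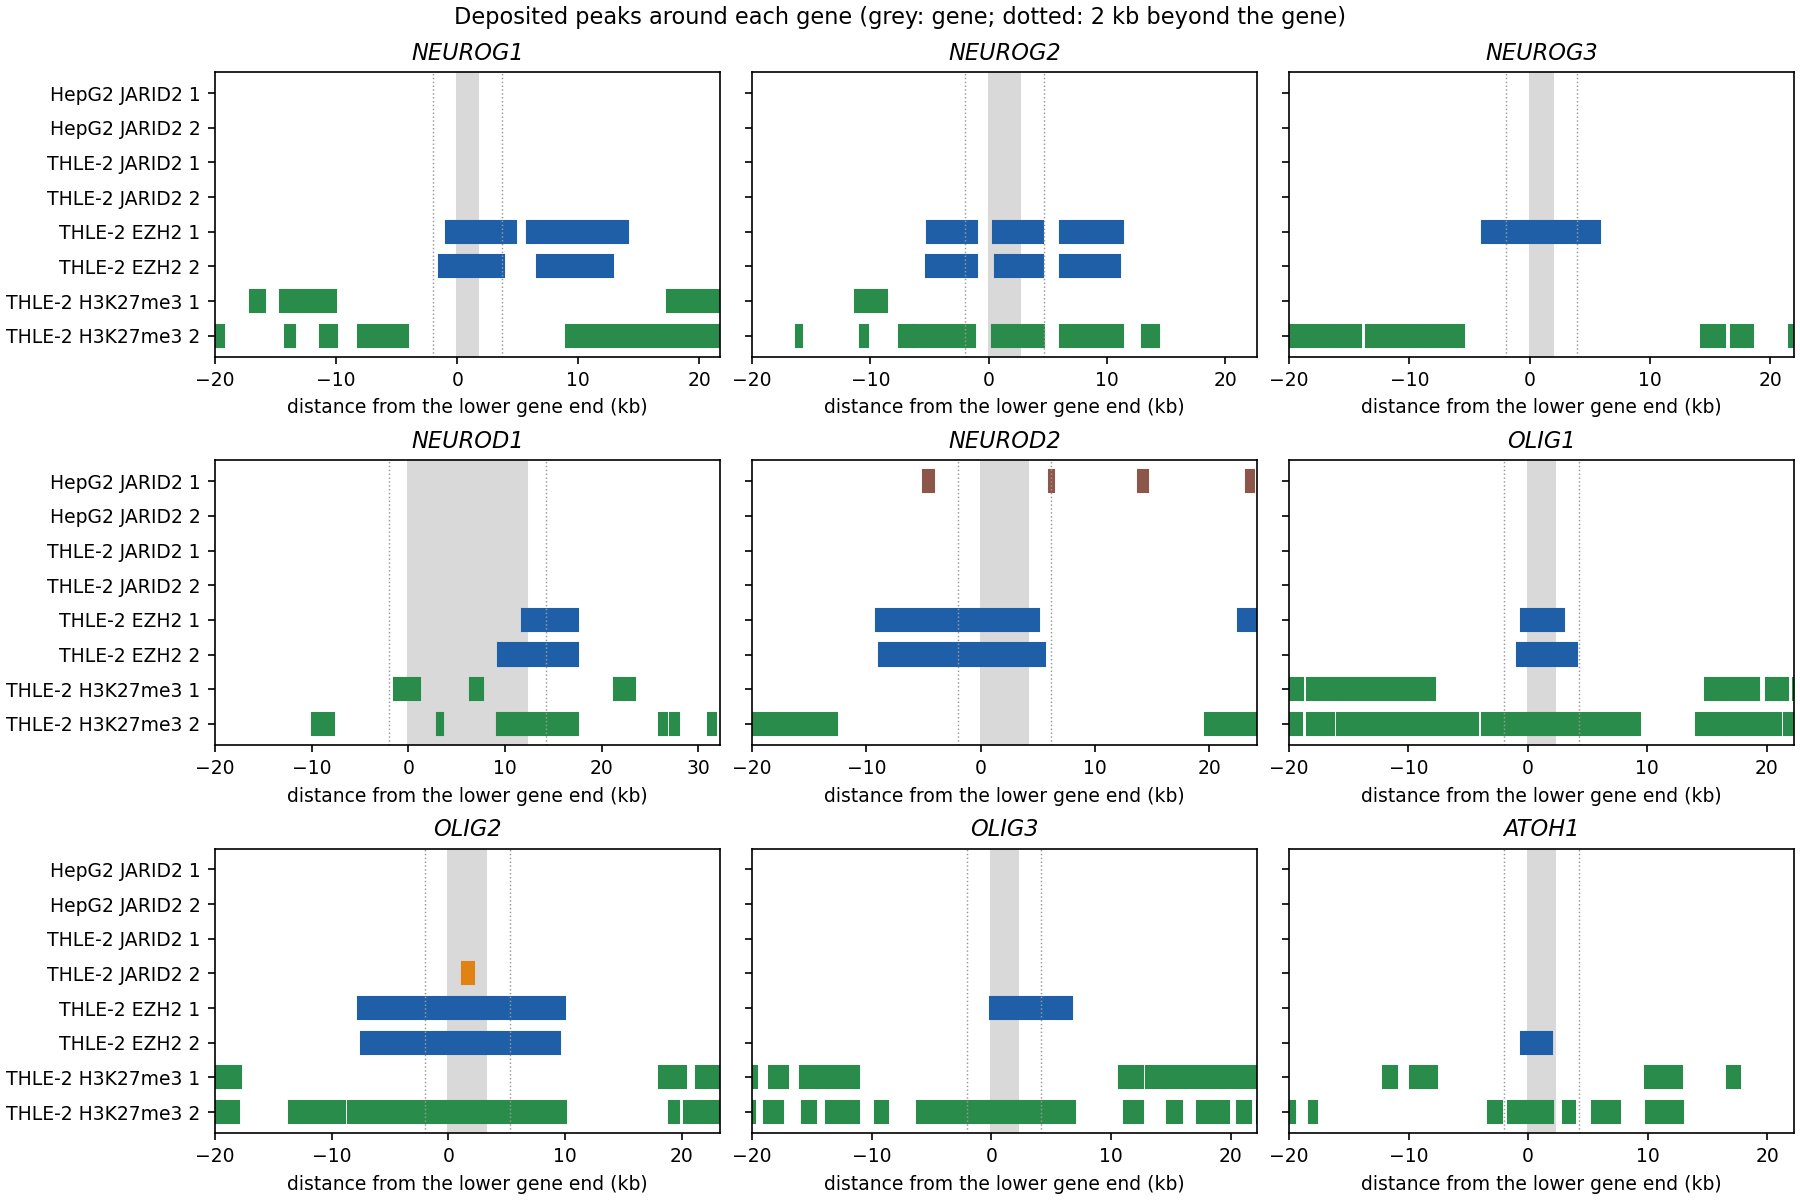
Deposited peaks around each of the 9 genes, with distance from the lower-numbered gene end in kb on the horizontal axis and the 8 libraries as rows; bars are peaks, grey is the gene and dotted lines lie 2 kb beyond it. EZH2 peaks sit across 8 genes in replicate 1 and 7 in replicate 2, and JARID2 peaks reach the windows of NEUROD2 and OLIG2 only.

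EZH2 in THLE-2 was found at all 9 neural bHLH genes in at least 1 replicate, beside 1515 of the 19970 protein-coding genes. It was found at 6 of the 9 in both: NEUROG1, NEUROG2, NEUROD1, NEUROD2, OLIG1 and OLIG2. Replicate 1 had peaks at 8 genes and replicate 2 at 7, beside 5.92% and 6.54% of all protein-coding genes, and 66.7% of the 9 genes had peaks in both replicates beside 4.88% of all genes. NEUROG3 and OLIG3 had a peak in replicate 1 alone, and ATOH1 in replicate 2 alone. The 9 genes were named for study with earlier results of these data known, so this count describes them and was not tested.

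Fold enrichment, the authors' ratio of IP tags over local input background at a peak, ranks peaks within a list and is not comparable across lists. NEUROG1, which starts neuron formation in sensory ganglia, had an EZH2 fold of 13.29 in replicate 1, at or above 94.6% of that list, and of 8.18 in replicate 2, at or above 77.4%. Its peaks covered the whole gene (135533356 to 135539114 and 135532812 to 135538127). Their summits lay 81 bp apart, at positions -278 and -197 from the start of transcription, inside the 300 bases printed for replicate 2 and just upstream of them for replicate 1.

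NEUROG2, a proneural factor of cortical and motor neurons, had 2 EZH2 peaks per library within 2 kb of its ends, with a gap between them in the same place. The upper peak covers the start of the gene (112513878 to 112518113 with a fold of 10.14 in replicate 1, and 112514090 to 112518078 with 6.75 in replicate 2). The lower peak lies past the end of the gene (112508286 to 112512501 with 6.79, and 112508252 to 112512497 with 6.44). Of the bases under both peaks, 97.0% of those in replicate 1 were also covered in replicate 2, and 99.6% the other way round. The upper peak also overlapped the antisense long non-coding RNA gene NEUROG2-AS1 and LOC124900760, so it cannot be assigned to NEUROG2 alone. NEUROG3, the factor that commits pancreatic cells to the endocrine lineage, had 1 broad peak of 9.78 kb in replicate 1 (fold 7.73, at or above 42.5% of the list) that also spans the long non-coding RNA gene LOC101929021. In replicate 2 the nearest EZH2 peak to NEUROG3 was 866 kb away.

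NEUROD1, a differentiation factor of neurons and pancreatic endocrine cells, had EZH2 peaks at its start and upstream of it in both replicates. The fold was 5.68 in replicate 1, at or above 11.8% of that list, and 9.79 in replicate 2, at or above 94.1%. The summits lay at positions -2723 and -3113, upstream of the promoter window, and the peaks covered 3.49% and 24.1% of the gene. These summits lay farther upstream than those of NEUROG1, and the rank of NEUROD1 differed widely between the replicates.

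NEUROD2, which acts in maturing forebrain neurons, lay under 1 of the broadest EZH2 domains. The peaks were 14.3 kb wide with 2556 tags and a fold of 12.37 in replicate 1 (39594638 to 39608898), and 14.5 kb wide with 2679 tags and 10.01 in replicate 2 (39594881 to 39609394). They ranked at or above 91.3% and 95.8% of their lists by fold and 98.9% and 99.3% by tags. The domain covered the whole gene and the region past its end, including LOC105371771, and its 2 summits lay 6.61 kb apart, the widest separation among the 6 genes.

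OLIG2, required for motor neurons and oligodendrocyte precursors, had the widest EZH2 domain and the highest fold of the 9 genes in both libraries. The peak was 17.7 kb wide with 3195 tags and a fold of 15.17 in replicate 1 (33018170 to 33035899, rank 49 of 2112), and 17.0 kb wide with 3362 tags and 11.07 in replicate 2 (33018438 to 33035463, rank 83 of 3690). The summits were 116 bp apart, inside the gene. OLIG1, which acts in oligodendrocyte maturation, had its own, smaller peak of 3.59 kb with 610 tags (fold 7.79) in replicate 1 and 5.03 kb with 714 tags (8.51) in replicate 2. OLIG3, a factor of dorsal spinal cord and hindbrain progenitors, had a 6.84-kb peak in replicate 1 with 1133 tags and a fold of 8.50. In replicate 2 the nearest peak to OLIG3 was 22.3 kb away.

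ATOH1, the factor of inner-ear hair cells, cerebellar granule neurons and gut secretory cells, had the weakest EZH2 peak of the 9 genes. It was found in replicate 2 alone (93828116 to 93830760, 2.65 kb, 328 tags), with a fold of 3.59 that ranked 3652 of 3690. Replicate 1 had no EZH2 peak nearer than 1520 kb. A false discovery rate of 100% stood beside the EZH2 peaks of all these genes in the deposited lists, other than OLIG2 in replicate 1, at 25%. That column reached a median of 100% in both EZH2 and both H3K27me3 lists, and in HepG2 JARID2 replicate 2. Its median was 1.29% in HepG2 JARID2 replicate 1, and 15.8% and 44.2% in THLE-2 JARID2 replicates 1 and 2.

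**Figure D2:**
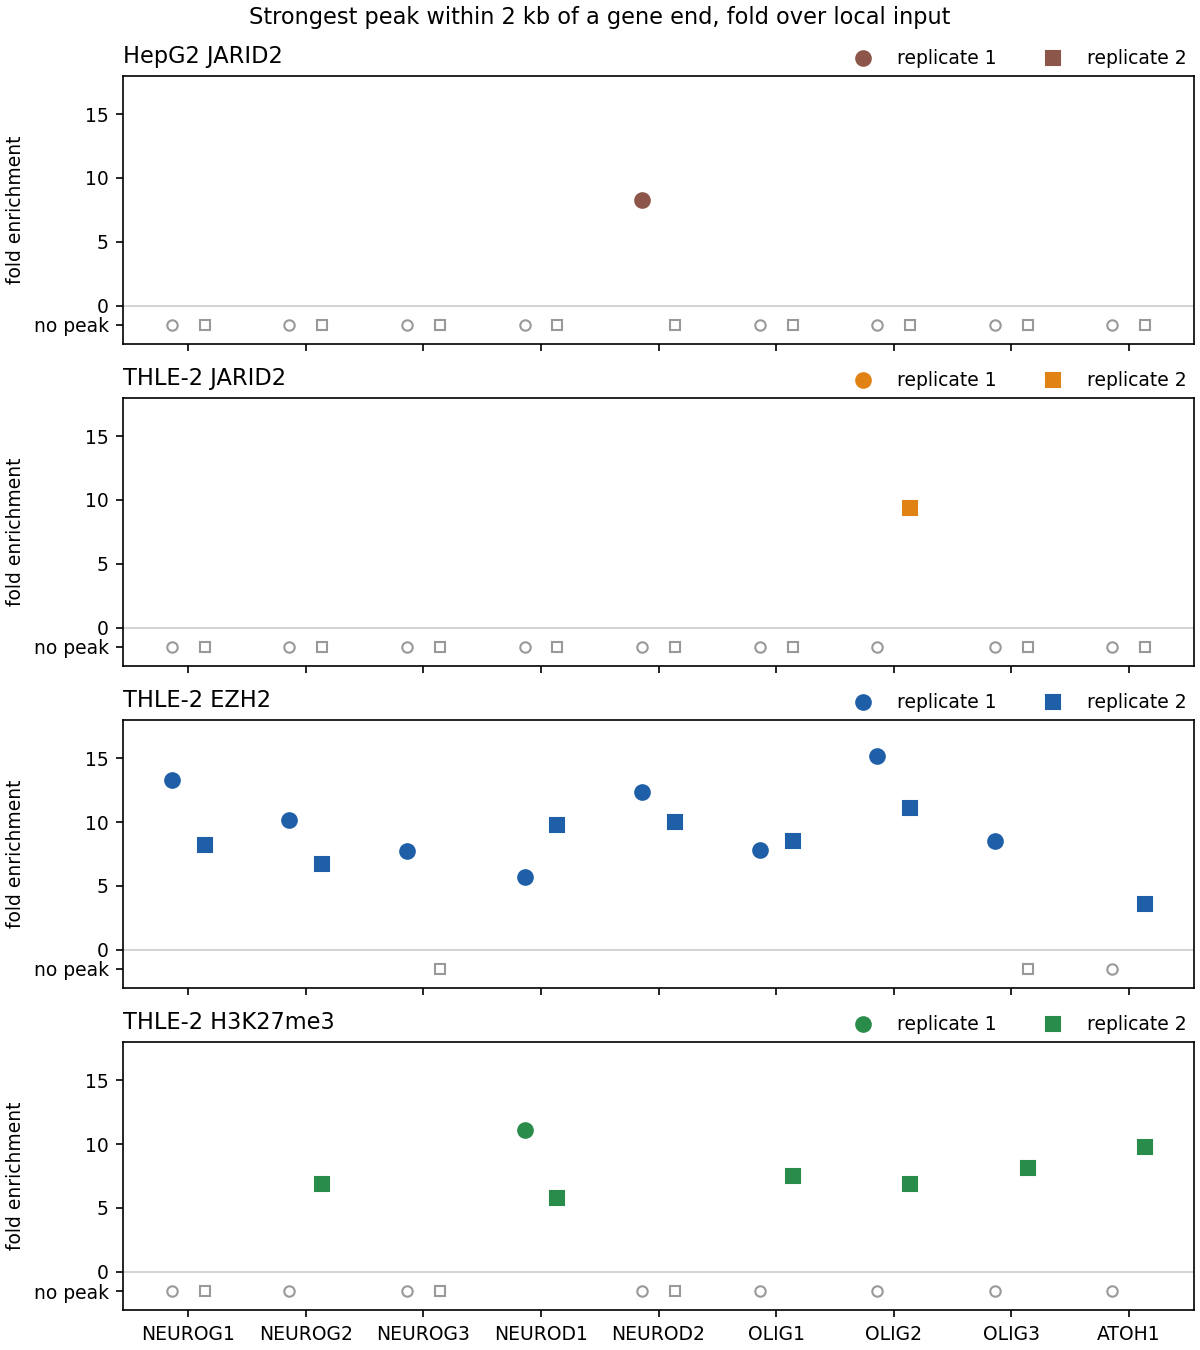
Fold enrichment over local input (vertical axis) of the strongest peak within 2 kb of an end of each gene, 1 panel per target and line, with circles for replicate 1 and squares for replicate 2; open grey symbols mark libraries with no peak. EZH2 folds run from 3.59 at ATOH1 to 15.17 at OLIG2, and JARID2 has 1 symbol in each line.

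Among the members with a peak, the EZH2 peaks were by median wider and richer in tags than those of all marked genes, which include the members. In replicate 1 the strongest peaks were 3591 to 17730 bp wide with a median of 6300, against 3867 over all genes with a peak in that library, and held a median of 849 tags against 474. In replicate 2 the median width was 5316 bp against 3631 and the median tag number 810 against 471. Median folds were 9.32 and 8.51, against 7.73 and 5.87. Single genes lay below the medians of all marked genes. These were ATOH1 in replicate 2 (2645 bp, 328 tags, fold 3.59), OLIG1 in replicate 1 by width (3591 bp) and NEUROD1 in replicate 1 by fold (5.68). At the 6 genes with peaks in both replicates, 82.9% to 100% of the replicate 1 bases were also covered in replicate 2.

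H3K27me3 in THLE-2 was found at far more of the neural bHLH genes in replicate 2 than in replicate 1. Replicate 1 had peaks at 1 of 9 genes, NEUROD1, beside 7.7% of all genes, and replicate 2 at 6 of 9, NEUROG2, NEUROD1, OLIG1, OLIG2, OLIG3 and ATOH1, beside 19.1% of all genes. NEUROD1 alone was marked in both (11.1% of the 9 genes, beside 6.75% of all genes), and there the peaks lay at opposite ends of the gene. NEUROG1, NEUROG3 and NEUROD2 had no H3K27me3 peak in either library.

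In replicate 2 the H3K27me3 peak with the most tags at each of the 6 marked genes was broad and dense. OLIG2 carried a peak of 18.7 kb with 6615 tags (33017309 to 33036048), OLIG3 one of 13.2 kb with 4163 tags (137485991 to 137499223), and ATOH1 one of 3.81 kb with 1089 tags (93827038 to 93830844). OLIG1 had a peak of 6.40 kb with 1931 tags, NEUROD1 one of 5.56 kb with 1857 and NEUROG2 one of 4.32 kb with 1267. Each of the 6 stood at or above 98.3% or more of the list by tags, and 99.5% or more by tags per kb. Their fold enrichments, of 5.19 to 8.15, were at or above only 7.37% to 50% of the list. These peaks were picked for their tags, so their high rank by tags is partly built in. The other H3K27me3 peaks in the windows stood at or above 75.1% to 98.1% of the list by tags and 12.1% to 72.9% by fold.

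In replicate 1 the peaks at NEUROD1 were small. They lay at the gene's far end (181666821 to 181668017 with 48 tags and a fold of 7.24, and 181668121 to 181669452 with 63 tags and 11.10), more than 11 kb from the start of transcription. In replicate 2 the peaks at NEUROD1 lay at the start (181680285 to 181685845 and 181677471 to 181680030). For the other 8 genes, the nearest H3K27me3 peak of replicate 1 was 7552 bp (ATOH1) to 23151 bp (NEUROG3) away. Replicate 1 was not short of peaks in the surroundings, with at least 1 within 50 kb of each gene. Summed gene by gene, the counts were 72 in replicate 1 and 163 in replicate 2. Peaks within 50 kb of both OLIG2 and OLIG1 are counted for each in these sums.

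**Figure D3:**
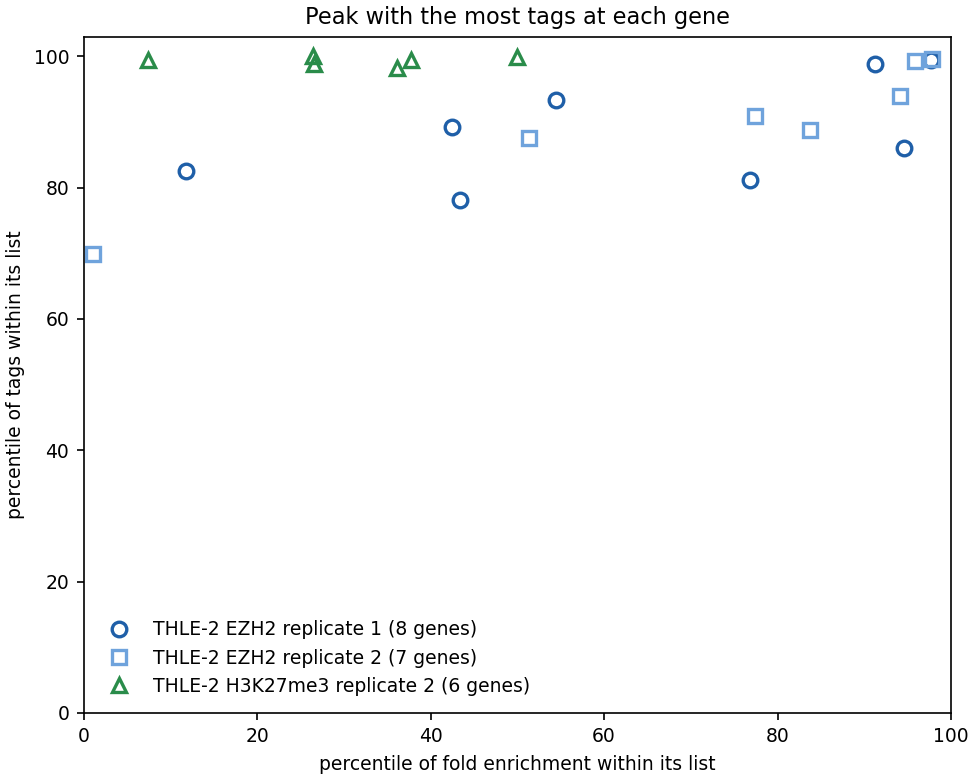
For the peak with the most tags at each gene, the percentile of its tag number (vertical axis) against the percentile of its fold enrichment (horizontal axis), both within the peak list of its library. The H3K27me3 replicate 2 peaks (triangles) lie at 98.3 to 100 by tags and 7.37 to 50 by fold, while EZH2 peaks (circles and squares) spread from 1.06 to 97.8 by fold.

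Where EZH2 and the replicate 2 H3K27me3 peaks met, nearly all EZH2 bases lay inside H3K27me3 peaks, while the H3K27me3 peaks reached farther at some genes. EZH2 replicate 1 and H3K27me3 replicate 2 overlapped at 5 genes (NEUROG2, NEUROD1, OLIG1, OLIG2 and OLIG3), with 96.6% to 100% of the EZH2 bases inside H3K27me3 peaks and 41.0% to 99.0% of the H3K27me3 bases inside EZH2 peaks. EZH2 replicate 2 overlapped at 5 genes, with ATOH1 in place of OLIG3, by 96.5% to 100% and 55.0% to 98.7%. The summits of both marks lay 98 and 18 bp apart at OLIG2 for EZH2 replicates 1 and 2. They lay 476 and 1 bp apart at OLIG1, 857 and 467 bp at NEUROD1, and 969 and 1697 bp at NEUROG2. At OLIG3 (EZH2 replicate 1) and ATOH1 (EZH2 replicate 2) the distances were 64 and 451 bp. Neither EZH2 library overlapped H3K27me3 replicate 1 at any of the 9 genes. The comparison therefore holds for a single H3K27me3 library. The same overlaps are not given for all genes with EZH2. These counts, and that of EZH2 without H3K27me3 below, therefore cannot be set apart from EZH2-marked genes in general.

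The remaining 3 genes had EZH2 without H3K27me3. NEUROG1 had EZH2 peaks in both replicates, with the nearest H3K27me3 peaks 4078 bp away in replicate 2 and 10025 bp in replicate 1. NEUROD2 had 14.3- and 14.5-kb EZH2 domains in both replicates, and the nearest H3K27me3 peaks were 12579 and 20464 bp away. NEUROG3 had EZH2 in replicate 1 alone, and H3K27me3 at 5453 and 23151 bp. In replicate 2, H3K27me3 peaks lay on both flanks of NEUROG1 and NEUROD2 and left the EZH2 peaks over the genes free. Further EZH2 peaks did meet flanking H3K27me3 peaks of replicate 2, with positions given from the lower gene end. Above NEUROG1 they lay at 5.76 to 14.1 kb in EZH2 replicate 1 (fold 8.71, 830 tags) and 6.62 to 12.9 kb in replicate 2 (6.52, 827 tags). The H3K27me3 peak there ran from 8.98 to 24.4 kb (16.84, 2835 tags). Above NEUROD2, an EZH2 replicate 1 peak at 22.5 to 25.4 kb (7.74, 347 tags) lay inside the H3K27me3 peak at 19.6 to 30.6 kb (7.02, 2200 tags).

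The space between OLIG2 and OLIG1 held H3K27me3 peaks of its own but no EZH2 peak of its own. In the 40955 bp between the genes, EZH2 peaks covered 17.8% and 17.5% in replicates 1 and 2, and these bases belonged to the edges of the 2 gene peaks, with no EZH2 peak wholly inside. H3K27me3 covered 41.9% in replicate 1 with 4 peaks wholly inside (folds 9.38 to 15.45), and 74.5% in replicate 2 with 7 (6.87 to 21.71). The inner H3K27me3 peaks lay in similar places in both replicates, whereas the H3K27me3 peaks over the OLIG2 and OLIG1 genes were called in replicate 2 only. JARID2 peaks covered none of the interval in any library.

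**Figure D4:**
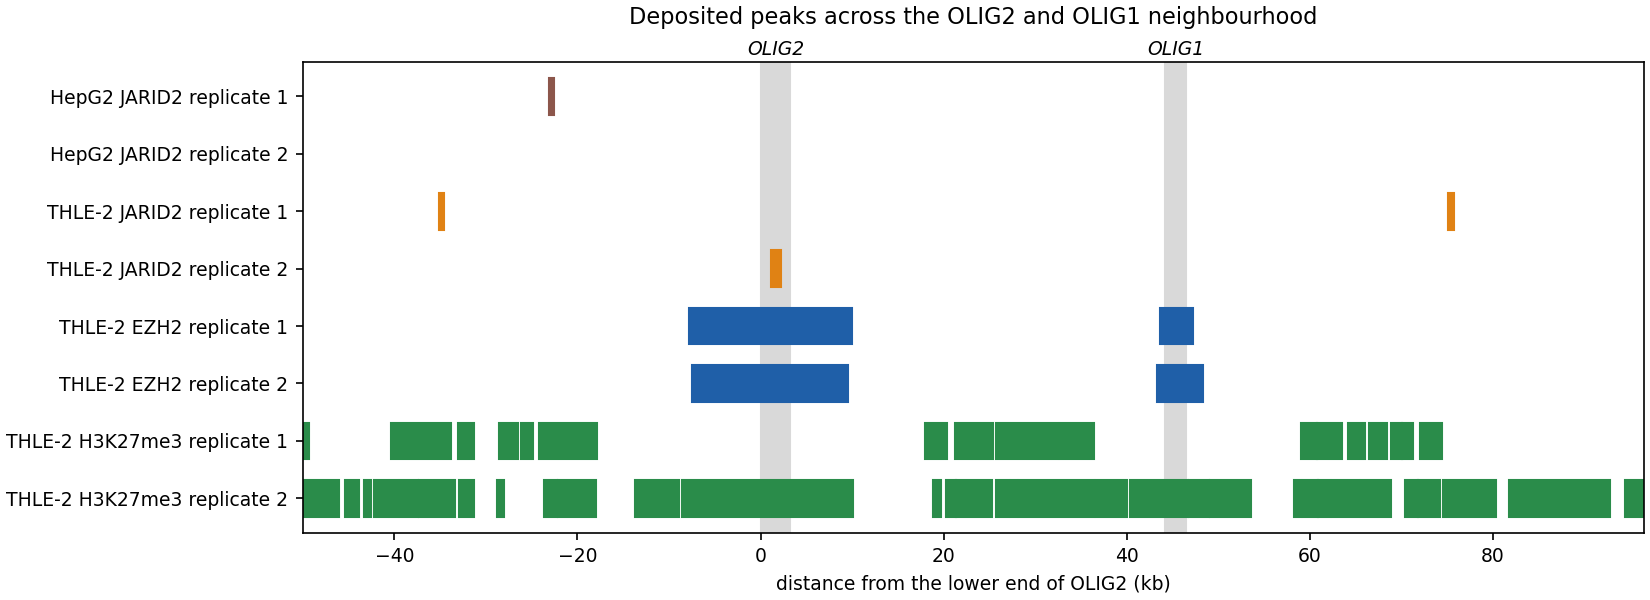
Deposited peaks across the OLIG2 and OLIG1 neighbourhood, with distance from the lower end of OLIG2 in kb on the horizontal axis and the 8 libraries as rows; grey marks the genes. EZH2 peaks stand over the genes with none between them, while H3K27me3 covers 41.9% (replicate 1) and 74.5% (replicate 2) of the space between.

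Measured over all bases within 10 kb of the 9 genes, EZH2 peaks covered 39.2% and 33.5% in replicates 1 and 2. H3K27me3 covered 6.88% and 48.4%. The JARID2 cover was 0.844% and 0% for the HepG2 libraries. It was 0% and 0.498% for those of THLE-2. As a mean per gene, the EZH2 cover was 39.9% and 33.4%, against 0.966% and 1.02% for the mean protein-coding gene. The H3K27me3 cover was 6.53% and 49.2%, against 2.72% and 5.99%. Each of these shares is over the whole gene and 10 kb on either side. The 9 genes are all shorter than the median of 24.2 kb over all protein-coding genes, so the windows compared are not alike in width. The effect of gene length on the shares was not tested. H3K27me3 replicate 1 changed with distance: its cover was 5.76% within 2 kb and 21.9% within 50 kb, so most of it lay away from the genes.

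JARID2 peaks lay at 0 or 1 of the 9 genes in each library, counts too small to set apart from the share over all genes. In HepG2, replicate 1 had a peak at 1 of 9 genes, NEUROD2, beside 22.5% of all genes, and replicate 2 at none, beside 0.716%. In THLE-2, replicate 1 had none, beside 4.21%, and replicate 2 had 1, OLIG2, beside 4.38%. No gene had JARID2 in both replicates of a line, beside 0.165% of all genes in HepG2 and 0.356% in THLE-2. Counts per library were 1 and 0 for HepG2 against 0 and 1 for THLE-2, a difference of 0 between means of 0.5 (two-sided exact permutation test over the 4 libraries, p = 1, where the smallest possible p is 0.3333). With 2 libraries per line this test cannot show a difference of any size, and it does not show that the lines are alike.

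Both JARID2 peaks were modest. The NEUROD2 peak in HepG2 (39609780 to 39610211) was 432 bp wide with 12 tags, a fold of 8.29 at or above 22.9% of its list and a false discovery rate of 2.02%. It lay 1860 bp upstream of the gene, just inside the 2-kb window, and was 1 of 5 JARID2 peaks of that library within 50 kb of the gene. The nearest peak just outside the window of any of the 9 genes without a call was the H3K27me3 replicate 2 peak at 4078 bp from NEUROG1. The OLIG2 peak in THLE-2 (33027080 to 33028138) was 1059 bp wide with 27 tags, a fold of 9.41 at or above 78.8% of its list, and a false discovery rate of 34%. It lay wholly inside the OLIG2 EZH2 domain, with its summit 44 and 160 bp from the 2 EZH2 summits. OLIG2 was the only one of the 9 genes with peaks of JARID2, EZH2 and H3K27me3 in THLE-2, in replicate 2 of each. A missing peak means that MACS called none at this depth and does not show the absence of the protein.

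Genes around the neural bHLH factors were counted by lists, to be read against the shares over all protein-coding genes: 4.88% for EZH2 in both replicates, and 7.7% and 19.1% for H3K27me3 in replicates 1 and 2. Of 15 other neural and sensory bHLH genes, 5 had EZH2 in both replicates (33.3%), among them BHLHE23 (folds 10.85 and 10.08) and BHLHE22 (7.82 and 8.79), relatives of the OLIG genes, PTF1A (9.05 and 5.86), a factor of pancreas and cerebellum, and NHLH2 (6.93 and 5.38). H3K27me3 was at 1 of the 15 in replicate 1, close to the 7.7% of all genes, and at 11 in replicate 2, beside 19.1%. Of 23 mesodermal and other tissue bHLH genes, 10 had EZH2 in both replicates (43.5%), including TAL1, a blood factor (12.55 and 10.17), HAND1 (10.72 and 9.89) and HAND2 (9.29 and 12.86), heart factors, and TWIST1 (8.21 and 7.84). H3K27me3 was at 2 and 13 of these, beside 7.7% and 19.1% of all genes. Tissue-specific bHLH genes with EZH2 were thus not limited to the neural lineage.

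The partners and restrainers of the neural bHLH factors were counted in the same way. Of 7 E proteins and ID inhibitors, which pair with or sequester bHLH factors in many tissues, 1 had EZH2 in both replicates, ID4 (7.42 and 3.89), which also had H3K27me3 in both (10.62 and 18.59). TCF12, an E protein, had JARID2 in both THLE-2 replicates (5.87 and 5.13) and no EZH2 peak. Of 23 Notch pathway genes, which hold proneural genes in check, 2 (8.70%, beside 4.88% of all genes) had EZH2 in both replicates: HEY2 (14.32 and 6.18) and HES3 (7.69 and 5.88), both repressors of the HES and HEY family. H3K27me3 was at none of the 23 in replicate 1 and 6 in replicate 2, a share near the 19.1% of all genes. HEY2 was also the only gene of these lists with JARID2 in both HepG2 replicates (9.48 and 7.78). TCF12 and the JARID2 peaks of HEY2 were singled out after their values were seen.

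Genes of the lineages in which the neural bHLH factors act fell into 4 lists. The order of regulation between these genes and the bHLH factors was not measured. Of 24 neuronal differentiation genes, 12 (50%, beside 4.88% of all genes) had EZH2 in both replicates, and 5 and 19 had H3K27me3 in replicates 1 and 2, beside 7.7% and 19.1%. They include POU4F1, a sensory neuron factor (EZH2 folds 14.78 and 9.03), the zinc finger repressors SCRT1 (11.76 and 8.39) and INSM1 (12.65 and 7.44), and EOMES (9.61 and 7.22), a factor of cortical progenitors. Of 9 hair cell and cerebellar granule genes, 5 (55.6%) had EZH2 in both: LHX2 (13.27 and 8.35), BARHL2 (12.17 and 7.38), ZIC1 (8.84 and 9.80), ZIC2 (8.55 and 9.71) and GFI1. Of 14 oligodendrocyte lineage genes, 3 (21.4%) did: SOX8 (10.54 and 8.40), NKX6-1 (9.06 and 7.63) and NKX6-2 (7.08 and 7.89). Of 15 endocrine and gut secretory genes, 3 (20%) did, among them INSM1 (12.65 and 7.44) and GFI1 (6.14 and 5.51). The lists share INSM1, GFI1 and NKX2-2, and no list was tested.

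**Figure D5:**
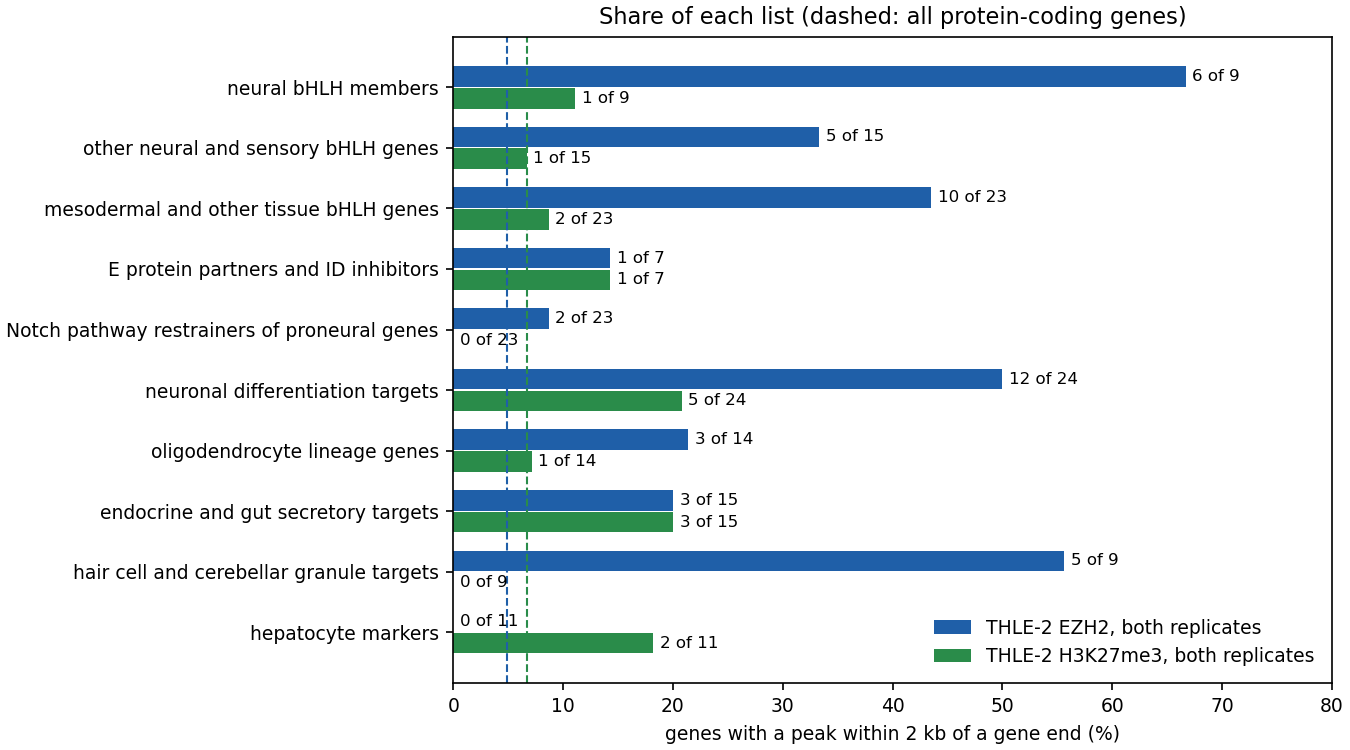
Share of each gene list (horizontal axis, %) marked in both THLE-2 replicates by a peak no farther than 2 kb from a gene end, for EZH2 (blue) and H3K27me3 (green), with the counts beside the bars and dashed lines at the shares over all protein-coding genes. EZH2 marks 6 of the 9 neural bHLH genes and 10 of 23 mesodermal and other tissue bHLH genes. It marks 5 of 9 hair cell and cerebellar granule genes and 12 of 24 neuronal differentiation genes. None of 11 hepatocyte markers has it, a count too small to set apart from the 4.88% of all protein-coding genes. The lists were chosen with earlier results of these data known, so their order was not tested.

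The pattern over all 8 libraries was compared between genes. Each protein-coding gene was given 8 values, the percentile of its strongest peak by fold in each library, with 0 for no peak, and was compared with the median profile of the 9 genes by Euclidean distance over the 8 libraries. The nearest were GAL (distance 3.79), a neuropeptide gene, PROM1 (7.20), TCF24 (12.4), PPP1R42 (13.5) and LHX6 (14.6), a factor of interneurons. TCF24, itself a bHLH gene, and PPP1R42 are neighbours on chromosome 8 and share peaks. The 9 genes themselves lay farther from their own median than these, at 17.0 (OLIG1) to 105 (ATOH1). The median profile is therefore close to OLIG1 and far from most of the 9 genes.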

How the data were processed

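The study is ChIP-seq of 2 cell lines with 8 IP and 8 input libraries. Tools listed in the submitters' processing notes are Bowtie2, cutadapt and MACS 1.4.2, with the build GRCh38. For cutadapt and Bowtie2 no version is stated there. Peak calling used uniquely mapped reads and paired every IP with its input, per the file headers, at a p cutoff of 1e-05, keeping at most 1 tag per position and scaling the larger library to the smaller. Replicates were not pooled. The authors deposited, per peak, a tag count, a score (-10 times the log10 of p), the fold enrichment (a ratio) and a false discovery rate in percent. These values are the authors' own.

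Peaks were matched to RefSeq genes of GRCh38.p14 by an overlap of at least 1 bp with 2 kb on either side of each gene end (Python 3.11.15, pandas 2.3.3), a step tested on simulated data. The start of transcription came from the RefSeq promoter table. The 9 genes and the companion lists were chosen with earlier results of these data known. From each companion list, up to 4 genes with EZH2 in both replicates and the best worse rank by fold were named, and 5 genes by profile distance. Of the genes this rule takes, 1 is not reported here. JARID2 counts were compared between lines by exact permutation. Alternatives changed the window, overlap, peak threshold and replicates. If replicates of a group came from the same culture, p-values measure technical spread alone.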

Additional observations from a re-analysis of the deposited data

How the results depend on the processing

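A count was taken as moved when it left the range within 1.5 times the reported count, a share of bases when it moved by more than the spread (1 SD) between the replicates, and the tested difference when its p crossed 0.05. By these limits 17 of 76 alternative values moved. The limit is wide where replicates differ, and H3K27me3 replicate 1 cover went from 6.88% to 21.9% within 50 kb inside it. Brackets give the same count over all 19970 genes. The EZH2 count of 6 genes in both replicates (975) stayed at 6 with windows of 1 kb (941) and 5 kb (1093) and the whole gene (1166). It also stayed with an overlap of 100 bp (971), a score of 100 or more (738), and the 2112 best peaks of each list (938). It was 3 with folds of 8 or more (174) and 9 with a peak in either replicate (1515). It was 7 without replicate 1 (1307) and 8 without replicate 2 (1183). The H3K27me3 count of 1 (1348) fell to 0 with folds of 8 or more (779), scores of 100 or more (760) and the 2112 best peaks (74). It was 6 with a peak in either replicate (4007), 6 without replicate 1 (3818) and 1 without replicate 2 (1537), so it rests on replicate 1. JARID2 counts of 0 (33 in HepG2, 71 in THLE-2) were 1 with a peak in either replicate of a line (4612 and 1644). Without replicate 1 they were 0 in HepG2 (143) and 1 in THLE-2 (875). Without replicate 2 they were 1 in HepG2 (4502) and 0 in THLE-2 (840). The cause was not tested.

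The JARID2 difference between lines ranged from -0.5 to 0.5 with 1 library left out. Replicate numbers are shared between groups in the labels. With the replicate block, the difference was 0 (exact sign permutation, p = 1, smallest possible 0.5). With a 1-kb window, both JARID2 peaks were lost. The OLIG2 peak lay inside the 3.25-kb gene, 1145 to 2203 bp from its lower end, in the stretch that 1-kb windows leave uncovered.

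Cover within 2 kb and within 50 kb in place of 10 kb was 58.9% and 10.3% for EZH2 replicate 1, and 54.9% and 9.29% for replicate 2. It was 0.206% within 2 kb for HepG2 JARID2 replicate 1, and 1.54% and 0.121% for THLE-2 JARID2 replicate 2. JARID2 libraries held 7.95 to 14.6 M tags and those of the other targets 29.6 to 39.0 M, and the effect of depth on the calls was not tested. Peaks without read coverage cannot show weak signal below the calling threshold.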
